A study of Homo sapiens with 8 samples.

Results

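The ATF4 amino acid stress response genes are 54 genes picked by name for what is known of them: the transcription factor ATF4 and the regulators around it, its stress effectors, and the enzymes, transporters and cytosolic tRNA synthetases through which cells make, import and charge amino acids. They are 54 of the 62086 gene identifiers in the deposited table, and the rule that lists them uses their symbols and no measured value. The list was, however, chosen with earlier results of these data known. The 5 roles held 7 transcription factors and regulators, 5 stress effectors, 14 enzymes of amino acid synthesis and one-carbon metabolism, 9 amino acid transporters and 19 cytosolic tRNA synthetases. Of the 54 members, 53 had enough counts to be tested, among 20165 genes in all.

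Cells of BG01, a human embryonic stem cell (hESC) line, were cultured in mTeSR medium and received 5 µg/mL of anti-M8nAb, a mouse antibody that neutralises MFG-e8, or 5 µg/mL of normal mouse IgG as the isotype control, for 12 h or 24 h. MFG-e8 is a secreted protein that bridges phosphatidylserine and integrins. Each of the 4 groups had 2 biological replicates, 8 libraries in all, so the data describe 1 line and 1 antibody, and every group analysed here received an antibody. The comparisons ask how expression of the members changed when MFG-e8 was neutralised for each time, and whether the response at 24 h differed from that at 12 h.

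ATF4 is the shared output of several kinases that phosphorylate the translation initiation factor eIF2. PERK senses misfolded protein in the endoplasmic reticulum, GCN2 senses uncharged tRNA, and PKR and HRI sense double-stranded RNA and haem shortage. Phosphorylated eIF2 slows translation in general but raises translation of the ATF4 message, so the level of ATF4 RNA need not follow its activity. ATF4 pairs with C/EBP proteins on a composite element and raises genes for amino acid synthesis, import and tRNA charging together with stress genes such as DDIT3 and TRIB3.

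Gene counts per library lay between 21010400 and 21792716, and levels below are CPM, counts scaled to a common library total, with TMM factors that equalise the bulk of genes between libraries. All 10 hESC markers were present at 89.0 CPM or more in each library. At 12 h their sum was 7961 and 8110 CPM with IgG and 9082 and 8980 CPM with anti-M8nAb. At 24 h it was 7150 and 7107 CPM with IgG and 7792 and 7556 CPM with anti-M8nAb. By edgeR at an adjusted p under 0.05, 8 of the 10 were higher at 12 h and none lower. At 24 h, 3 were higher and 2 lower. Over all genes tested, 15.8% were higher and 16.4% lower at 12 h, and 21.2% and 21.3% at 24 h. Of 12 markers of mesoderm, endoderm, neural and trophoblast progeny, 6 stayed under 1 CPM in all 8 libraries, SOX17, GATA6 and HAND1 among them. The sum of the 12 lay between 7.42 and 10.2 CPM with IgG and between 12.5 and 17.1 CPM with anti-M8nAb. Of 8 tested, 5 were higher and none lower at 12 h, while 2 were higher and 2 lower at 24 h. FOXA2, which fell while the sum rose, was at 3.20 and 2.42 CPM with IgG and 0.633 and 0.731 CPM with anti-M8nAb at 24 h. The 8 fibroblast markers summed to between 435 and 504 CPM with IgG, between 502 and 531 CPM after 12 h of anti-M8nAb and between 625 and 651 CPM after 24 h. THY1, which hESCs also express, made up most of that sum, while DCN and LUM never passed 0.589 CPM. Of 6 fibroblast markers tested, 2 were higher and none lower at 12 h, and 3 were higher and none lower at 24 h. At 24 h PDGFRB was at 33.2 and 35.1 CPM with IgG and 54.9 and 54.5 CPM with anti-M8nAb. FBN1 was at 21.8 and 19.8 CPM with IgG and 28.1 and 25.2 CPM with anti-M8nAb at that time. The part of these shifts in the results below was not tested, and in bulk RNA fewer cells of a type and less RNA per cell cannot be told apart.

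The composite element that ATF4 and C/EBP proteins bind was looked for in the promoters of the members, since it is the sequence through which ATF4 is known to act. The motif searched was TGATGNAAN on either strand, in the RefSeq promoter windows of GRCh38.p14, which run from 250 bases before to 50 bases after the gene start. Of the 44 members with such a window, 16 held the motif (36.4%), against 1215 of all 27305 genes with a window (4.45%). Of single windows, 1268 of all 35116 held it (3.61%). By role, it was found in 1 of 6 transcription factors and regulators, 1 of 5 stress effectors, 2 of 9 enzymes, 5 of 8 transporters and 7 of 16 tRNA synthetases. The members were picked for what is known of them, with known ATF4 targets included. Their share beside that of all genes is thus a description and no test. Windows were not held for PSPH, SLC7A3, LARS1, VARS1, ALDH1L2, SHMT2, GPT2, NUPR1, YARS1 and PYCR1. The members below are the 8 holders with the smallest adjusted p at 24 h, shown so that the letters that matched and those around them can be read. Their likeness within the capitals is set by the search. Each stretch is written 5′ to 3′ on the strand of its gene, with the motif in capitals. Where the motif lay on the other strand, the capitals are its reverse complement.
SLC1A5: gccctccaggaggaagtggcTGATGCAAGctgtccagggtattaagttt
TARS1: gcgcctttcgATTGCATCAgctgg
SLC38A1: cagacccgaaTGATGAAAAgggat
CARS1: cggggcggcgGTTGCATCAgattc
ASNS: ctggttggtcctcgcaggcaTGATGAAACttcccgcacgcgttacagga
CHAC1: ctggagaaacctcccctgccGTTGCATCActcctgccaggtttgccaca
MARS1: gccggttccgGTTGCATCAgcgag
SLC1A4: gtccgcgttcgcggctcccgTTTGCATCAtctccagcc

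On GRCh38.p14 the stretch of SLC1A5 is chr19:46784883-46784931 on the minus strand and that of TARS1 is chr5:33440956-33440979 on the plus strand. SLC38A1 is read from chr12:46266507-46266530 on the minus strand, CARS1 from chr11:3057413-3057436 on the minus strand and ASNS from chr7:97872448-97872496 on the minus strand. CHAC1 is read from chr15:40953241-40953289, MARS1 from chr12:57488053-57488076 and SLC1A4 from chr2:64989371-64989408, all 3 on the plus strand. The motif begins 210 bases before the gene start in CHAC1, 97 before it in SLC1A5 and 68 before it in ASNS, and lies within 10 bases of the start in the other 5. A match is a description of the letters in this window and not evidence of binding.

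Anti-M8nAb moved the members in both directions at both times. At 12 h, 5 of the 53 tested members were higher with anti-M8nAb (9.43%) where 15.8% of all genes tested were, and 25 were lower (47.2%) where 16.4% of all genes were. At 24 h, 14 members were higher (26.4%) against 21.2% of all genes, and 20 were lower (37.7%) against 21.3% of all genes. The median log2 fold change of the members was -0.12 at 12 h and -0.036 at 24 h, and that of all genes was 0.0015 and 0.0034.

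Changes of at least 2-fold were few among the 53 tested members, as they were among all genes. At 12 h, 1 member, TRIB3, rose and 1, ALDH1L2, fell by that much, with 3.4% of all genes higher and 2.97% lower by at least 2-fold. By 24 h, 4 members (DDIT4, STC2, VLDLR and ASNS) had risen and 2 (ALDH1L2 and CBS) had fallen at least 2-fold, with 4.76% of all genes higher and 4.84% lower by that much. The median size of a member's log2 change, 0.21 at both times, was below that of all genes, 0.26 at 12 h and 0.32 at 24 h. Among genes with a mean of at least 1 CPM that median was 0.223 at 12 h, close to that of the members, and 0.280 at 24 h. On the deposited FPKM, where each library keeps its own total, the calls over all genes leaned to lower, with 1550 rises and 2881 falls at 12 h in place of 3196 and 3300, and 2334 rises and 4319 falls at 24 h in place of 4270 and 4296. For the members that scale gave 4 rises and 25 falls at 12 h, and 11 rises and 20 falls at 24 h.

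**Figure D1:**
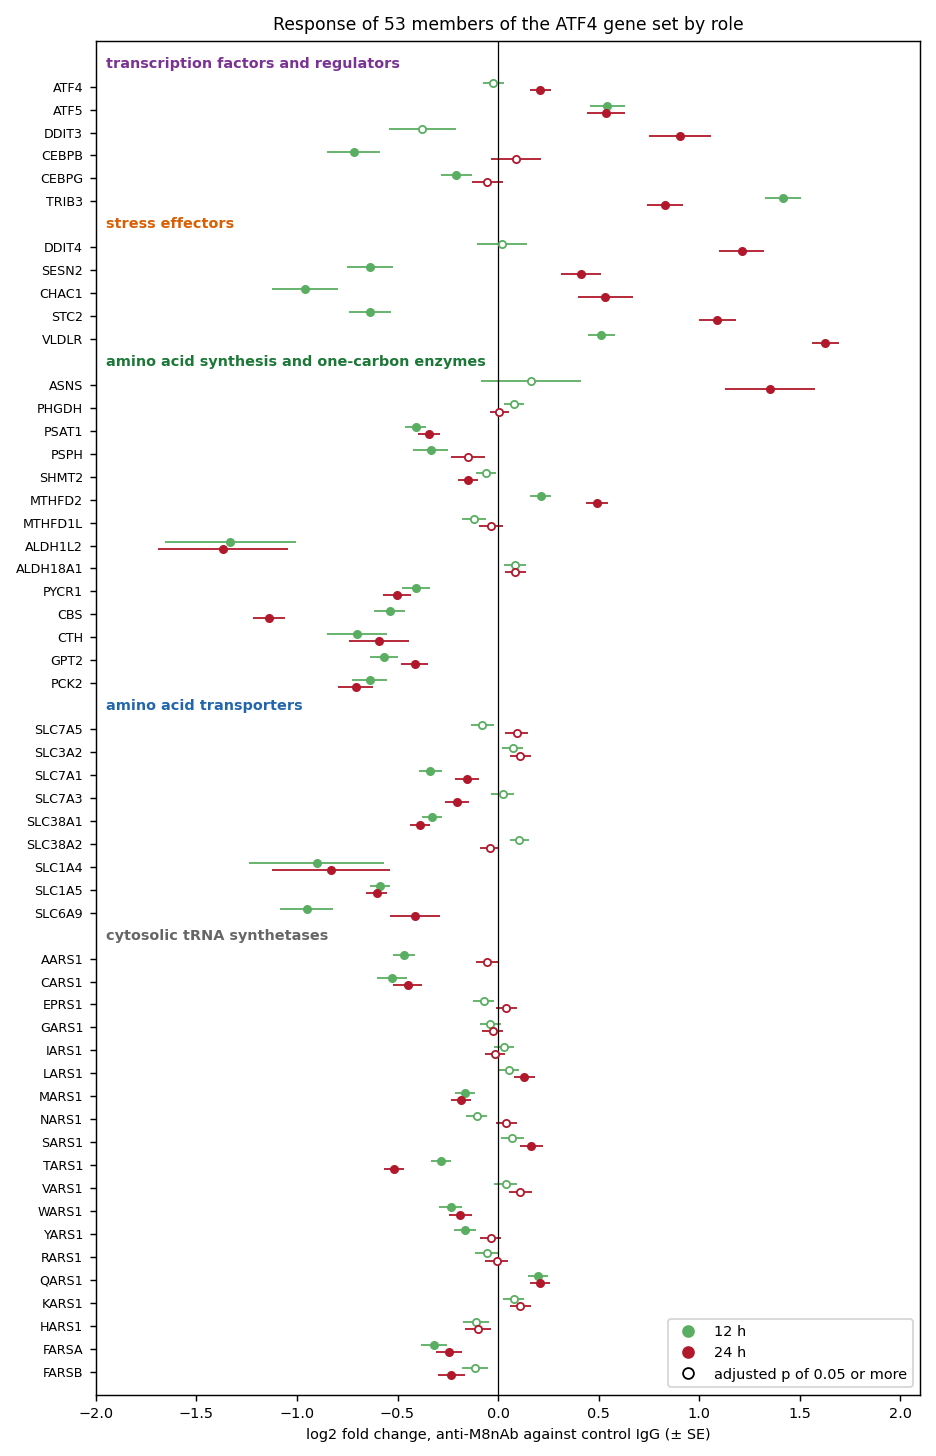
Log2 fold change with anti-M8nAb against control IgG of the 53 tested members, grouped by role, at 12 h (green) and 24 h (red), with bars of 1 standard error and open circles for an adjusted p of 0.05 or more. The 5 stress effectors lie to the right of 0 at 24 h, while most transporters and synthesis enzymes that moved lie to the left at both times.

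The regulators were split at 12 h and, among those that passed the test, higher at 24 h. Of 6 tested, 2 rose and 2 fell by 12 h, where 15.8% and 16.4% of all genes did. By 24 h, 4 rose and none fell, where 21.2% and 21.3% of all genes did. DESeq2 and an unadjusted p under 0.05 in edgeR gave the same 24 h counts, but at 12 h they gave 1 and 3 falls. ATF4 itself (ENSG00000128272.18, chr22:39519695-39522683 on the plus strand of GRCh38) had the highest level of all members per length, a mean of 144 FPKM over the 8 libraries. It stood at 369 and 376 CPM with IgG and 347 and 386 CPM with anti-M8nAb at 12 h, and at 345 and 365 CPM with IgG and 410 and 411 CPM with anti-M8nAb at 24 h. The groups overlapped at 12 h and stood apart at 24 h. The log2 fold change was -0.024 ± 0.051 (SE, here and below) at 12 h with an adjusted p of 0.765 and 0.21 ± 0.051 at 24 h with an adjusted p of 0.000743. On FPKM with a pseudocount of 1 the 24 h change was 0.12, with an adjusted p of 0.14, and the call was lost.

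TRIB3, a pseudokinase that ATF4 and DDIT3 induce and that feeds back on ATF4, showed the largest rise of any member at 12 h. TRIB3 (ENSG00000101255.13, chr20:362835-397559 on the plus strand) measured 30.3 and 28.3 CPM with IgG and 75.5 and 81.0 CPM with anti-M8nAb at 12 h. At 24 h it measured 31.5 and 35.9 CPM with IgG and 66.2 and 53.5 CPM with anti-M8nAb. Every anti-M8nAb library was above every IgG library, by a log2 fold change of 1.42 ± 0.089 at 12 h (adjusted p 4.02e-17) and 0.83 ± 0.089 at 24 h (adjusted p 1.6e-10). The rise was smaller at 24 h, by -0.59 ± 0.13 on the log2 scale (adjusted p 0.000881), a difference that did not pass on FPKM with a pseudocount of 1 (-0.57, adjusted p 0.0807).

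ATF5, a relative of ATF4 that is also translated under eIF2 phosphorylation, rose at both times. Its level was 37.1 and 35.2 CPM with IgG and 51.1 and 54.3 CPM with anti-M8nAb at 12 h, and 25.0 and 26.4 CPM with IgG and 40.3 and 34.2 CPM with anti-M8nAb at 24 h. The groups did not overlap at either time, and the log2 fold change was 0.54 ± 0.088 at 12 h (adjusted p 3.55e-06) and 0.54 ± 0.093 at 24 h (adjusted p 6.19e-06). Under IgG alone ATF5 was lower at 24 h than at 12 h by -0.49 ± 0.093 (adjusted p 0.000195), and its 24 h level with anti-M8nAb overlapped that of IgG at 12 h.

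DDIT3, known as CHOP, is a transcription factor linked to cell death under lasting stress. DDIT3 (ENSG00000175197.13, chr12:57516588-57521737 on the minus strand) was at 8.39 and 8.09 CPM with IgG and 6.38 and 6.32 CPM with anti-M8nAb at 12 h, and at 8.08 and 8.19 CPM with IgG and 12.6 and 17.8 CPM with anti-M8nAb at 24 h. The 12 h change of -0.38 ± 0.17 did not pass (adjusted p 0.0836), and the 24 h change of 0.90 ± 0.15 passed (adjusted p 4.9e-06). At 12 h both anti-M8nAb libraries were below both IgG libraries, as they were for 33.33% of all genes tested. The replicates at 24 h were far apart, but both lay above IgG.

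CEBPB, a C/EBP partner of ATF4, was lower at 12 h and overlapped with IgG at 24 h. It was at 17.6 and 17.1 CPM with IgG and 10.2 and 10.9 CPM with anti-M8nAb at 12 h, and at 16.8 and 19.6 CPM with IgG and 16.6 and 22.2 CPM with anti-M8nAb at 24 h. Its log2 fold change was -0.72 ± 0.13 at 12 h (adjusted p 3.52e-05) and 0.088 ± 0.12 at 24 h (adjusted p 0.606). CEBPG, another partner, changed by -0.21 ± 0.077 at 12 h (adjusted p 0.0347), a call lost when any 1 of the 4 libraries at 12 h was left out, with an adjusted p of 0.0574 to 0.235. NUPR1, a small chromatin protein of the stress response, was too low to test, at 0 to 3 counts per library, with 47.6% of its coding sequence covered on the same strand by another annotated gene.

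**Figure D2:**
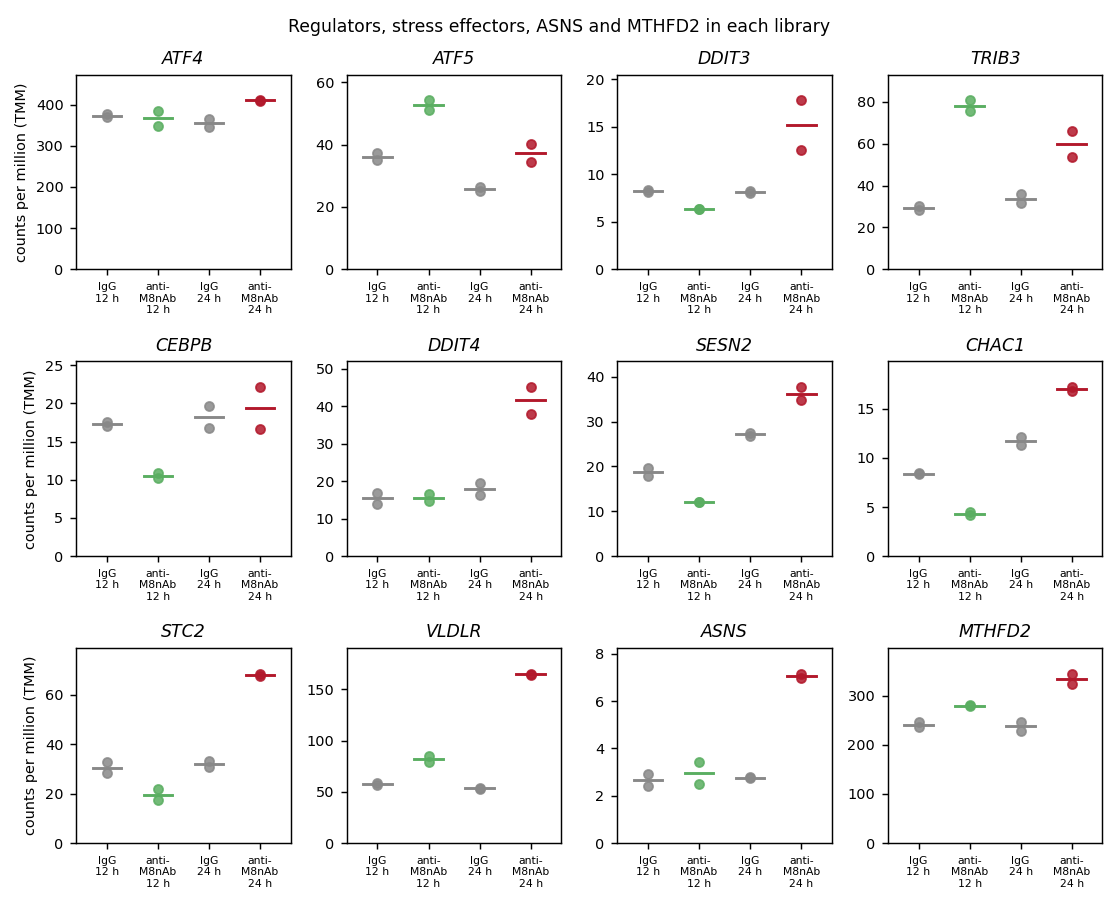
TMM-scaled CPM of 12 members in each library, with IgG in grey, anti-M8nAb at 12 h in green and at 24 h in red. Points are libraries and lines are means of 2. SESN2, CHAC1 and STC2 lie below IgG at 12 h and above it at 24 h, while TRIB3, ATF5 and VLDLR lie above it at both times.

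The 5 stress effectors were all higher with anti-M8nAb at 24 h, and 3 of the 5 were lower at 12 h. Of all genes tested, 21.2% were higher at 24 h and 16.4% were lower at 12 h. Summed over the 5 genes, the level was 130 and 131 CPM with IgG and 138 and 130 CPM with anti-M8nAb at 12 h, and 141 and 144 CPM with IgG and 322 and 332 CPM with anti-M8nAb at 24 h. All 5 responses differed between the times by the interaction test, each by more than 1 log2 unit. Of all genes tested, 5.79% had a more positive response at 24 h.

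VLDLR, a lipoprotein receptor, had the largest response of the set at 24 h. It measured 56.6 and 58.4 CPM with IgG and 84.7 and 79.5 CPM with anti-M8nAb at 12 h, and 52.8 and 53.7 CPM with IgG and 164 and 165 CPM with anti-M8nAb at 24 h. The groups were apart at each time, and the log2 fold change of 0.51 ± 0.067 (adjusted p 3.66e-08) grew to 1.63 ± 0.066 (adjusted p 1.29e-24).

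DDIT4, also called REDD1, restrains the growth kinase complex mTORC1, and its response appeared at 24 h. Its libraries held 16.7 and 14 CPM with IgG and 14.6 and 16.5 CPM with anti-M8nAb at 12 h, then 16.4 and 19.4 CPM with IgG and 38.0 and 45.2 CPM with anti-M8nAb at 24 h. The groups overlapped at 12 h (0.020 ± 0.12, adjusted p 0.926) and were more than 2-fold apart at 24 h (1.21 ± 0.11, adjusted p 2.35e-12).

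STC2, a secreted glycoprotein, changed direction between the times. With IgG it was at 28.3 and 32.6 CPM at 12 h and 33.2 and 30.7 CPM at 24 h, and with anti-M8nAb at 22.0 and 17.2 CPM at 12 h and 68.4 and 67.5 CPM at 24 h. Both anti-M8nAb libraries were below IgG at 12 h (-0.64 ± 0.10 on the log2 scale, adjusted p 3.06e-06) and both were above it at 24 h (1.09 ± 0.093, adjusted p 1.9e-13). The difference of the responses, 1.73 ± 0.14, was the largest among the members (adjusted p 4.78e-13).

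CHAC1, an enzyme that degrades glutathione, behaved likewise. CHAC1 (ENSG00000128965.13, chr15:40952962-40956512 on the plus strand) was at 8.34 and 8.42 CPM with IgG and 4.47 and 4.15 CPM with anti-M8nAb at 12 h, and at 11.3 and 12.2 CPM with IgG and 17.2 and 16.8 CPM with anti-M8nAb at 24 h. It changed by -0.96 ± 0.16 at 12 h (adjusted p 8.3e-06) and by 0.53 ± 0.14 at 24 h (adjusted p 0.00122), with groups that did not overlap at either time. SESN2, a leucine sensor that holds back mTORC1, was at 19.6 and 17.9 CPM with IgG and 12.0 and 12.2 CPM with anti-M8nAb at 12 h. It was at 26.9 and 27.5 CPM with IgG and 34.7 and 37.8 CPM with anti-M8nAb at 24 h. The change turned from -0.64 ± 0.11 (adjusted p 1.79e-05) to 0.41 ± 0.10 (adjusted p 0.000631). Both genes also rose with time under IgG alone, CHAC1 by 0.49 ± 0.14 (adjusted p 0.0169) and SESN2 by 0.53 ± 0.10 (adjusted p 0.000302).

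**Figure D3:**
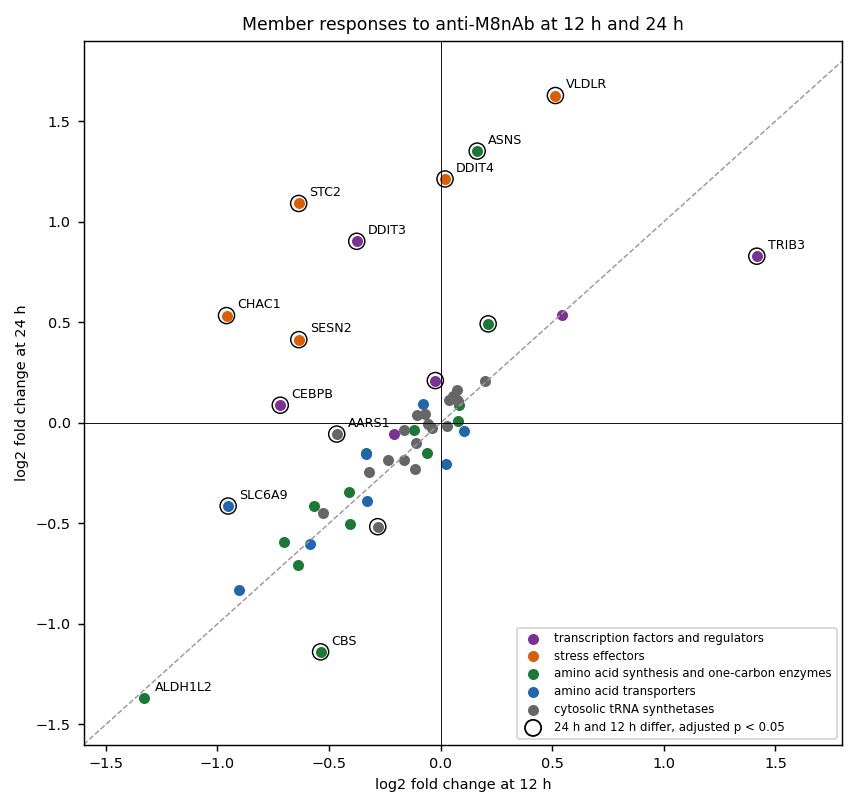
Log2 fold change at 24 h against that at 12 h for the 53 tested members, coloured by role, with equal responses on the dashed line and the 15 members whose responses differed ringed. SESN2, CHAC1 and STC2 lie in the upper left, lower at 12 h and higher at 24 h, while PSAT1, CARS1 and SLC1A5 lie below 0 near the dashed line and ASNS lies far above it.

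Among the 14 enzymes, 1 rose (7.14%) and 8 fell (57.1%) by 12 h, where 15.8% and 16.4% of all genes did. By 24 h, 2 rose (14.3%) and 8 fell (57.1%), where 21.2% and 21.3% of all genes did. The 2 that rose at 24 h were ASNS and MTHFD2. ASNS, which makes asparagine and is a standard readout of ATF4, had a log2 fold change of 0.16 ± 0.25 at 12 h (adjusted p 0.661) and 1.35 ± 0.22 at 24 h (adjusted p 2.86e-06). ASNS (ENSG00000070669.17, chr7:97851677-97872542 on the minus strand) was at 2.40 and 2.90 CPM with IgG and 2.50 and 3.42 CPM with anti-M8nAb at 12 h, and at 2.75 and 2.78 CPM with IgG and 6.96 and 7.16 CPM with anti-M8nAb at 24 h. The groups overlapped at 12 h, and the 24 h libraries with anti-M8nAb were the highest of the 8.

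The level of ASNS in the table is uncertain. A second annotated gene, ENSG00000284707, covers 96.1% of the ASNS coding sequence on the same strand, and reads that fall in both genes may be counted for neither. ASNS held 51 to 147 counts per library, a mean of 0.782 FPKM, and that second gene held 57 to 70 counts. Over all exon bases of ASNS the shared part is 49.3%. How such reads were counted was not tested. Its difference between the times, 1.19 ± 0.33 (adjusted p 0.0126), was lost when IgG replicate 2 at 12 h (1.03, adjusted p 0.0964) or anti-M8nAb replicate 1 at 12 h (0.98, adjusted p 0.0654) was left out.

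MTHFD2, a mitochondrial enzyme of the folate cycle, was at 247 and 235 CPM with IgG and 281 and 278 CPM with anti-M8nAb at 12 h, and at 247 and 229 CPM with IgG and 324 and 345 CPM with anti-M8nAb at 24 h. Its groups were apart at both times, by 0.21 ± 0.053 (adjusted p 0.00151) and 0.49 ± 0.053 (adjusted p 1.57e-10). The 12 h call was lost without IgG replicate 2 at 12 h (0.19, adjusted p 0.0526) and on FPKM (0.15, adjusted p 0.0921). Its partners in the mitochondrial folate cycle did not pass as higher. SHMT2, which feeds it from serine, changed by -0.060 ± 0.050 at 12 h (adjusted p 0.386) and changed by -0.15 ± 0.050 at 24 h (adjusted p 0.0119), a call lost without IgG replicate 2 (adjusted p 0.0791) or anti-M8nAb replicate 1 (adjusted p 0.0795) at that time. MTHFD1L, which releases formate, did not pass at either time, with -0.12 and -0.036.

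ALDH1L2, which oxidises the folate-bound carbon in mitochondria, was the member with the largest fall at both times. It was low throughout, at 3.32 and 2.21 CPM with IgG and 1.18 and 1.01 CPM with anti-M8nAb at 12 h, and 3.15 and 2.78 CPM with IgG and 1.31 and 0.974 CPM with anti-M8nAb at 24 h. The groups did not overlap at either time, with log2 fold changes of -1.33 ± 0.33 (adjusted p 0.00138) and -1.37 ± 0.32 (adjusted p 0.000535). Without IgG replicate 1 at 12 h the first was -1.0, with an adjusted p of 0.0712.

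Of the 3 enzymes that lead from glycolysis to serine, PSAT1 was the one lower at both times on counts. PHGDH, the first enzyme, had log2 fold changes of 0.079 ± 0.047 at 12 h (adjusted p 0.209) and 0.007 ± 0.047 at 24 h (adjusted p 0.922). PSAT1, the second enzyme (ENSG00000135069.14, chr9:78297125-78330093 on the plus strand), was at 255 and 267 CPM with IgG and 201 and 192 CPM with anti-M8nAb at 12 h, and at 248 and 235 CPM with IgG and 192 and 189 CPM with anti-M8nAb at 24 h. It fell at both times without overlap, by -0.41 ± 0.054 (adjusted p 4.09e-08) and -0.34 ± 0.054 (adjusted p 9.12e-07). PSPH, the last enzyme, changed by -0.34 ± 0.088 at 12 h (adjusted p 0.00255), a call lost without IgG replicate 1 at 12 h (-0.30, adjusted p 0.0541), and had a change of -0.15 ± 0.087 at 24 h (adjusted p 0.165). With limma on log2(FPKM + 1) the 24 h change of PSPH passed as lower (-0.22, adjusted p 0.0129), as it did on each other FPKM scale.

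The transsulfuration enzymes, which make cysteine from homocysteine, both fell. CBS, the first of them, was at 67.9 and 68.7 CPM with IgG and 47.6 and 46.5 CPM with anti-M8nAb at 12 h, and at 69.1 and 73.3 CPM with IgG and 30.7 and 34.0 CPM with anti-M8nAb at 24 h. Each anti-M8nAb library lay below each IgG library, and the fall deepened from -0.54 ± 0.076 (adjusted p 2.54e-07) to -1.14 ± 0.079 (adjusted p 2.97e-16). A near-identical copy of CBS in the annotation held 0.921% as many counts as CBS. CTH, the second enzyme, was at 11.0 and 14.6 CPM with IgG and 7.56 and 8.20 CPM with anti-M8nAb at 12 h, and at 13.0 and 13.7 CPM with IgG and 8.66 and 9.06 CPM with anti-M8nAb at 24 h. Its libraries did not overlap, and it changed by -0.70 ± 0.15 (adjusted p 0.000275) and -0.59 ± 0.15 (adjusted p 0.00106), the first lost without IgG replicate 2 at 12 h (-0.47, adjusted p 0.0618).

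PCK2, GPT2 and PYCR1 were also lower at both times. PCK2, the mitochondrial form of the enzyme that makes phosphoenolpyruvate, was at 42.8 and 44.1 CPM with IgG and 28.6 and 27.2 CPM with anti-M8nAb at 12 h, and at 47.6 and 49.5 CPM with IgG and 29.5 and 30.0 CPM with anti-M8nAb at 24 h. GPT2, which interconverts alanine and glutamate, was at 94.6 and 90.7 CPM with IgG and 60.2 and 65.0 CPM with anti-M8nAb at 12 h, and at 96.8 and 94.7 CPM with IgG and 73.1 and 70.5 CPM with anti-M8nAb at 24 h. The groups of both genes were apart at both times, with changes of -0.64 ± 0.088 and -0.71 ± 0.086 for PCK2 and -0.57 ± 0.068 and -0.41 ± 0.067 for GPT2, and adjusted p no higher than 1.83e-06. PYCR1, which completes proline, changed by -0.41 ± 0.070 (adjusted p 8.98e-06) and -0.50 ± 0.070 (adjusted p 7.32e-08). ALDH18A1, which starts proline synthesis, did not pass, at 0.083 and 0.087.

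**Figure D4:**
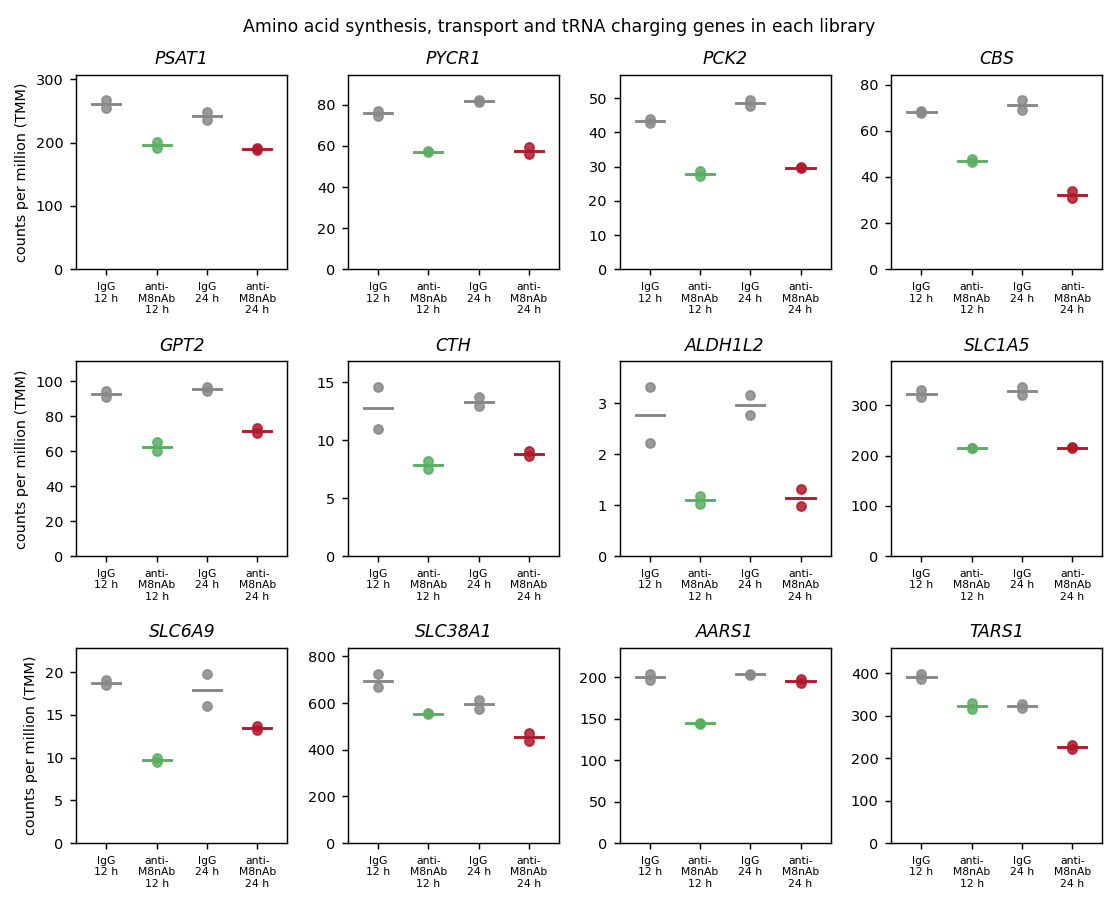
TMM-scaled CPM of 12 members that make, import or charge amino acids in each library, with IgG in grey, anti-M8nAb at 12 h in green and at 24 h in red. Points are libraries and lines are means of 2. All 12 passed as lower at 12 h, so the panels do not represent these roles as a whole. Members of the same roles that rose (ASNS, MTHFD2, QARS1, LARS1 and SARS1) or passed at neither time are not shown here. In each panel the anti-M8nAb libraries lie below the IgG libraries of the same time, but the 24 h gap of AARS1 did not pass the test on counts.

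No transporter passed the test as higher at either time in edgeR or DESeq2, while 5 of 9 were lower at 12 h and 6 of 9 at 24 h in edgeR, and 4 and 5 in DESeq2. Of all genes tested in edgeR, 16.4% were lower at 12 h and 21.3% at 24 h. At an unadjusted p under 0.05 in edgeR, 1 transporter was higher at each time, SLC38A2 at 12 h and SLC3A2 at 24 h. SLC1A5, a carrier of glutamine and other neutral amino acids, was the transporter with the smallest adjusted p. Its libraries held 317 and 330 CPM with IgG and 216 and 215 CPM with anti-M8nAb at 12 h, and 320 and 337 CPM with IgG and 217 and 216 CPM with anti-M8nAb at 24 h. The anti-M8nAb level was the same at both times to within 2 CPM, with log2 fold changes of -0.59 ± 0.051 (adjusted p 1.2e-12) and -0.60 ± 0.051 (adjusted p 1.9e-13).

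SLC38A1, another glutamine carrier, was at 667 and 726 CPM with IgG and 558 and 551 CPM with anti-M8nAb at 12 h, and at 615 and 576 CPM with IgG and 472 and 437 CPM with anti-M8nAb at 24 h. It changed by -0.33 ± 0.049 (adjusted p 7.24e-07) and -0.39 ± 0.049 (adjusted p 1.13e-08), and also with time under IgG, by -0.23 ± 0.049 (adjusted p 0.00113). SLC38A2, its close relative and the transporter with the highest FPKM (a mean of 104), did not pass at 12 h (0.11 ± 0.047, adjusted p 0.083) or 24 h (-0.042 ± 0.047, adjusted p 0.506).

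SLC6A9, a glycine carrier, was at 19.0 and 18.4 CPM with IgG and 9.91 and 9.45 CPM with anti-M8nAb at 12 h, and at 16 and 19.8 CPM with IgG and 13.7 and 13.2 CPM with anti-M8nAb at 24 h. Both anti-M8nAb libraries were below IgG at each time. The log2 fold change was -0.95 ± 0.13 at 12 h (adjusted p 1.16e-07) and -0.41 ± 0.13 at 24 h (adjusted p 0.00653), and without IgG replicate 2 at 24 h the latter was -0.25 (adjusted p 0.183).

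The heterodimer SLC7A5 and SLC3A2, which imports leucine and other large neutral amino acids, did not pass at either time. SLC7A5 had changes of -0.077 ± 0.057 and 0.092 ± 0.056, and SLC3A2 of 0.073 ± 0.053 and 0.11 ± 0.052. Under IgG both were higher at 24 h than at 12 h, by 0.20 ± 0.056 (adjusted p 0.0103) and 0.28 ± 0.053 (adjusted p 0.000236). The carriers of arginine and lysine differed. SLC7A1 was lower at 12 h (-0.34 ± 0.059, adjusted p 1.38e-05) and at 24 h (-0.16 ± 0.059, adjusted p 0.029), and the 24 h call was lost without IgG replicate 2 (-0.16, adjusted p 0.0631) or anti-M8nAb replicate 2 (-0.11, adjusted p 0.262) at that time.

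SLC7A3, the other of these carriers, was at 151 and 157 CPM with IgG and 149 and 164 CPM with anti-M8nAb at 12 h, and at 163 and 172 CPM with IgG and 142 and 149 CPM with anti-M8nAb at 24 h. The groups overlapped at 12 h. The 24 h change of -0.20 ± 0.059 (adjusted p 0.00447) was lost without IgG replicate 2 (-0.16, adjusted p 0.0586) or anti-M8nAb replicate 1 (-0.17, adjusted p 0.0706) at that time. SLC1A4, a carrier of alanine, serine and cysteine, was low, at 1.16 to 5.33 CPM. Its changes of -0.90 ± 0.34 and -0.83 ± 0.29 passed (adjusted p 0.0353 and 0.0193), but the second was -0.25 with an adjusted p of 0.633 without IgG replicate 1 at 24 h, the library at 5.33 CPM. Neither passed in DESeq2 (adjusted p 0.114 and 0.106). The 12 h change was -0.59 (adjusted p 0.34) without IgG replicate 2, -1.0 (adjusted p 0.0529) without anti-M8nAb replicate 1 and -0.80 (adjusted p 0.125) without anti-M8nAb replicate 2. At 24 h it was -1.25 (adjusted p 0.0029) without IgG replicate 2 and -0.71 (adjusted p 0.125) without anti-M8nAb replicate 2.

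The 19 cytosolic tRNA synthetases, which load each amino acid on its tRNA, had a median change of 0.11 in size at both times. At 12 h, 1 was higher (5.26%) and 7 were lower (36.8%), where 15.8% and 16.4% of all genes were. At 24 h, 3 were higher (15.8%) and 6 lower (31.6%), where 21.2% and 21.3% of all genes were. Their log2 fold changes ran from -0.53 to 0.20 at 12 h and from -0.52 to 0.21 at 24 h, and none reached 2-fold. CARS1, for cysteine, was at 78.7 and 73.4 CPM with IgG and 54.1 and 51.4 CPM with anti-M8nAb at 12 h, and at 88.2 and 80.2 CPM with IgG and 62.1 and 61.2 CPM with anti-M8nAb at 24 h. Its groups did not overlap, and it changed by -0.53 ± 0.073 (adjusted p 1.3e-07) and -0.45 ± 0.071 (adjusted p 1.3e-06).

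AARS1, for alanine, was lower at 12 h alone on counts. It was at 197 and 204 CPM with IgG and 146 and 144 CPM with anti-M8nAb at 12 h, and at 203 and 205 CPM with IgG and 198 and 194 CPM with anti-M8nAb at 24 h. The log2 fold change went from -0.47 ± 0.054 (adjusted p 3e-09) to -0.056 ± 0.054 (adjusted p 0.424), and the difference of 0.41 ± 0.076 passed its own test (adjusted p 0.000144). With limma on log2(FPKM + 1) the 24 h change of AARS1 passed as lower (-0.14, adjusted p 0.0391), as it did on each other FPKM scale.

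TARS1, for threonine, fell further with time. Its levels were 386 and 399 CPM with IgG and 316 and 329 CPM with anti-M8nAb at 12 h, and 328 and 319 CPM with IgG and 231 and 221 CPM with anti-M8nAb at 24 h. The anti-M8nAb libraries lay below IgG at both times, by -0.28 ± 0.050 (adjusted p 1.55e-05) and -0.52 ± 0.051 (adjusted p 1.35e-11), and IgG at 24 h lay below IgG at 12 h by -0.28 ± 0.050 (adjusted p 9.29e-05).

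QARS1, for glutamine, was the synthetase that passed as higher at both times, at 213 and 216 CPM with IgG and 248 and 244 CPM with anti-M8nAb at 12 h, and at 217 and 211 CPM with IgG and 248 and 246 CPM with anti-M8nAb at 24 h. The groups were apart, with small changes of 0.20 ± 0.052 (adjusted p 0.00245) and 0.21 ± 0.052 (adjusted p 0.000959). MARS1, WARS1 and FARSA were lower at both times, by 0.16 to 0.32 in size. YARS1 was lower at 12 h (-0.16), FARSB at 24 h (-0.23), and LARS1 (0.13) and SARS1 (0.17) were higher at 24 h. Several of these small calls turned on 1 library. At 12 h, MARS1 was lost without IgG replicate 1, IgG replicate 2 or anti-M8nAb replicate 1 (adjusted p 0.0845 to 0.125), WARS1 without IgG replicate 2 (adjusted p 0.0519) and YARS1 without any 1 of the 4 libraries (adjusted p 0.0705 to 0.133). At 24 h, MARS1 was lost without anti-M8nAb replicate 1 (adjusted p 0.0518), FARSA without IgG replicate 2 (-0.14, adjusted p 0.137) or anti-M8nAb replicate 2 (adjusted p 0.057), and SARS1 without IgG replicate 2 (adjusted p 0.0614) or anti-M8nAb replicate 2 (adjusted p 0.0954). LARS1 at 24 h was lost without either IgG library of 12 h (adjusted p 0.0702 and 0.0737), either anti-M8nAb library of 24 h (adjusted p 0.0903 and 0.114) or IgG replicate 2 of 24 h (0.049, adjusted p 0.506), and was 0.21 without IgG replicate 1 of 24 h. The other 8 synthetases, EPRS1, GARS1, IARS1, NARS1, VARS1, RARS1, KARS1 and HARS1, passed at neither time.

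Taken by time, 17 members were lower at both times, 5 were higher at both (ATF5, TRIB3, VLDLR, MTHFD2 and QARS1), and 3 were lower at 12 h and higher at 24 h (SESN2, CHAC1 and STC2). None went from higher to lower. A further 5 were lower at 12 h alone, 6 were higher and 3 lower at 24 h alone, and 14 passed at neither time. How often each of these joint patterns occurred outside the members was not counted. Whether the members stand out in them therefore cannot be told. Calls at 1 time alone do not show a difference between times, which was tested directly. The response was more positive at 24 h than at 12 h for 12 members, where 5.79% of all genes were, and more negative for 3 members (CBS, TRIB3 and TARS1), where 6.54% of all genes were. The 12 were ATF4, DDIT3, CEBPB, all 5 stress effectors, ASNS, MTHFD2, SLC6A9 and AARS1. ATF4 was the smallest of these, 0.23 ± 0.072 (adjusted p 0.0242), and 5 single libraries each ended the call, with an adjusted p of 0.0603 to 0.198 without them: both IgG replicates at 12 h, anti-M8nAb replicate 1 at 12 h, IgG replicate 1 at 24 h and anti-M8nAb replicate 2 at 24 h. The difference of SLC6A9, 0.54 ± 0.18 (adjusted p 0.0423), was lost without any 1 library but IgG replicate 2 at 24 h (adjusted p 0.0596 to 0.215). That of MTHFD2, 0.28 ± 0.075 (adjusted p 0.00853), was lost without IgG replicate 1 at 12 h (adjusted p 0.119), IgG replicate 2 at 24 h (adjusted p 0.0632) or anti-M8nAb replicate 2 at 24 h (adjusted p 0.0629). That of TARS1, -0.23 ± 0.071 (adjusted p 0.0216), was lost without IgG replicate 1 at 12 h (adjusted p 0.137), anti-M8nAb replicate 2 at 12 h (adjusted p 0.0974) or anti-M8nAb replicate 2 at 24 h (adjusted p 0.109).

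With IgG alone, 5 members were higher at 24 h than at 12 h (7.01% of all genes) and 7 were lower (6.64% of all genes). The higher were SESN2, CHAC1, SLC7A5, SLC3A2 and SLC38A2. The lower were ATF5, SLC38A1 and the synthetases EPRS1, NARS1, TARS1, FARSA and FARSB, by 0.18 to 0.49 in size. Without IgG replicate 1 at 12 h the higher were 2 and the lower 5, and without IgG replicate 2 at 12 h there were 2 of each. Without IgG replicate 2 at 24 h 4 were higher and 3 lower.

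The 16 members whose promoter window held the motif were compared with the 28 whose window did not, as a description. Of the 16, none was higher in edgeR (none at an unadjusted p under 0.05, and none in DESeq2) and 10 were lower at 12 h, and 2 were higher (ASNS and CHAC1) and 7 lower at 24 h. DESeq2 gave 8 lower at 12 h and 6 at 24 h. Of the 28, 5 rose and 10 fell by 12 h, while 11 rose and 8 fell by 24 h. Of all genes tested, 15.8% were higher and 16.4% lower at 12 h, and 21.2% and 21.3% at 24 h. The median log2 fold change of the holders was -0.24 at 12 h and -0.055 at 24 h, against -0.075 and 0.087 without the motif. The groups differ in role, since the holders were mostly transporters and synthetases.

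The eIF2 kinases and the machinery they act on were examined beside the members. Of 14 such genes, 3 rose and 3 fell by 12 h (21.4% each), where 15.8% and 16.4% of all genes did. By 24 h, 3 rose (21.4%) and 2 fell (14.3%), where 21.2% and 21.3% of all genes did. EIF2AK3, which encodes PERK, was at 35.1 and 31.8 CPM with IgG and 43.7 and 42.6 CPM with anti-M8nAb at 12 h, and at 47.3 and 44.3 CPM with IgG and 92.0 and 93.4 CPM with anti-M8nAb at 24 h. It rose at both times, by 0.37 ± 0.081 (adjusted p 0.000407) and 1.02 ± 0.076 (adjusted p 3.03e-15). IMPACT, an inhibitor of GCN2, was higher by 0.33 ± 0.072 and 0.35 ± 0.072, EIF2S1, the phosphorylated eIF2 subunit itself, changed by -0.29 ± 0.060 at 24 h, and EIF2B4, of the exchange factor eIF2B, changed by -0.40 ± 0.074 at 12 h. The genes for GCN2 (EIF2AK4), HRI (EIF2AK1) and PKR (EIF2AK2) passed at neither time.

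Of 12 other genes linked to ATF4, 11 were tested. By 12 h, 3 rose (27.27%) and 5 fell (45.45%), where 15.8% and 16.4% of all genes did. By 24 h, 7 rose (63.64%) and 2 fell (18.18%), where 21.2% and 21.3% of all genes did. ATF3, a transcription factor of many stresses, was at 28.4 and 23.1 CPM with IgG and 51.2 and 55.2 CPM with anti-M8nAb at 12 h, and at 22.6 and 24.6 CPM with IgG and 101 and 117 CPM with anti-M8nAb at 24 h, a rise of 1.05 ± 0.091 that grew to 2.21 ± 0.089 (adjusted p 1.35e-24). GDF15, a secreted stress hormone, was at 1.69 and 2.03 CPM with IgG and 28.2 and 40.3 CPM with anti-M8nAb at 24 h, a rise of 4.20 ± 0.20 (adjusted p 1.02e-21). SLC7A11, the cystine importer, was at 29.6 and 25.6 CPM with IgG and 64.8 and 67.3 CPM with anti-M8nAb at 24 h. It rose by 1.26 ± 0.089 (adjusted p 6.67e-16) and overlapped with IgG at 12 h, at 39.0 and 34.5 CPM with IgG and 44.3 and 38.9 CPM with anti-M8nAb. XPOT, which exports tRNA from the nucleus, changed by -0.29 ± 0.048 at 12 h (adjusted p 4.17e-06) and -0.16 ± 0.048 at 24 h (adjusted p 0.0071).

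Some members share sequence with other genes. Counting by strand was not given in the sources used here, so reads of a gene and of an antisense partner cannot be told apart. Exons were covered on the opposite strand for 31.6% of DDIT3 (by MARS1, itself a member, and MBD6), 23.8% of SLC1A5, 19.5% of ATF5, 15.6% of PYCR1, 14.1% of MTHFD2, 12.6% of CEBPB and 12.4% of MARS1. Pseudogenes and copies held at most 0.921% of their member's counts.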

How the data were processed

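Total RNA of BG01 cells was sequenced in 8 libraries of 4 groups of 2. Per the labels and methods, Trimmomatic trimming, 2-pass STAR alignment to GRCh38.p14, duplicate removal by Picard and HTSeq counting on the Ensembl gene set came before deposit. The deposited tables hold raw counts per gene, and FPKM per gene that the authors computed with RNAnorm. Removal of duplicates can compress the counts of abundant genes. Each of the tables also has 4 columns that matched no label and were not used. Lines without a gene name were left out: the largest held 49.3 to 50.2% of all counts of a library, and the others 0.192 to 0.21% of counts outside it.

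All 62086 identifiers were matched to GENCODE 44. Genes were kept by filterByExpr, scaled by TMM and tested with the two-sided quasi-likelihood test of edgeR 4.0.16 (R 4.3.3) in 1 fit of 4 group means, with Benjamini-Hochberg adjustment over 20165 genes and a threshold of 0.05. The common biological coefficient of variation was 5.53%. No 2 libraries agreed within counting noise. With 2 libraries a group, p-values measure the spread between these samples, which were labelled biological replicates. Alternatives were DESeq2 1.42.0, its size factors, other filters, each time alone, limma 3.58.1 on log2(FPKM + 1) or log2(FPKM + 0.1), a replicate block and leaving out each library. Fold changes on the FPKM scale understate those of low genes. The scripts were tested on simulated data.

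The members, lists and alternatives were chosen with earlier results of these data known. Values per library are given for ATF4, ASNS, DDIT3, CHAC1, TRIB3 and PSAT1, for members past the threshold by at least 2-fold, and for the 3 members of each role whose adjusted p was smallest at either time. SESN2, CTH and the ranges of SLC1A4 were added after their values were seen. Of other lists, up to 4 genes with the smallest adjusted p were named, and some of these are not reported here.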

Additional observations from a re-analysis of the deposited data

Results flagged for a closer look

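The response to anti-M8nAb differed between 12 h and 24 h for 15 members by the interaction test of edgeR, and each is given as the log2 fold change at 24 h minus that at 12 h. Of the stress effectors, STC2 differed by 1.73, CHAC1 by 1.49, DDIT4 by 1.19, VLDLR by 1.11 and SESN2 by 1.05. Of the regulators, DDIT3 differed by 1.28, CEBPB by 0.81, ATF4 by 0.23 and TRIB3 by -0.59. Among enzymes, ASNS differed by 1.19, MTHFD2 by 0.28 and CBS by -0.60. SLC6A9 differed by 0.54, AARS1 by 0.41 and TARS1 by -0.23. CHAC1, SESN2 and STC2 are the members whose 2 responses passed in opposite directions. The common direction of the 12 positive differences came with a shift in IgG for CHAC1 and SESN2, which rose from 12 h to 24 h without the antibody, and with none that passed for STC2 (0.068), DDIT4 (0.22) or VLDLR (-0.11).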

How the results depend on the processing

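The counts of members higher or lower at 12 h and 24 h stayed within 1.5 times under each alternative: 4 to 6 higher and 19 to 26 lower at 12 h, and 11 to 17 higher and 15 to 20 lower at 24 h. No called member reversed. Of 30 calls at 12 h, 20 held under each alternative, and of 34 at 24 h, 23 did. Of the 15 differences between times, 5 held throughout (STC2, CHAC1, VLDLR, SESN2 and AARS1). Those of ATF4, CEBPB, TRIB3, ASNS, MTHFD2, SLC6A9 and TARS1 did not pass on any FPKM scale. More positive responses numbered 12, against 7 on log2(FPKM + 1) or log2(FPKM + 0.1) and 5 on log2(FPKM + 1) of all genes, and more negative ones 3, against 1, 1 and 0. Leaving out 1 library gave 9 to 11 and 2 to 4. With IgG alone, 5 members were higher at 24 h, against 3, 3 and 2 on those FPKM scales, 2 without the filter on low counts and 2 to 6 without 1 library, and 7 were lower, against 2, 2 and 0, and 2 to 7. The cause of these losses was not tested. Leaving out 1 library ended 9 calls at 12 h, 9 at 24 h and 5 of the differences, named above. Same-numbered replicates did not deviate together (correlations of -0.052 to 0.043), and the replicate block kept 5 higher and 25 lower at 12 h, 14 and 20 at 24 h, and 12 and 3 for the difference. NUPR1 had too few counts to be tested, and ALDH1L2, SLC1A4 and ASNS, all under 1 FPKM, had the largest standard errors.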

Other observations

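Mitochondrial tRNA synthetases and cytosolic one-carbon enzymes were counted beside all genes tested, of which 15.8% were higher and 16.4% lower at 12 h and 21.2% and 21.3% at 24 h. Of 17 mitochondrial synthetases, 4 rose and 2 fell by 12 h, while 7 rose and 5 fell by 24 h. WARS2, for tryptophan, rose at both times, by 0.63 ± 0.11 and 0.87 ± 0.12 (adjusted p 1.73e-05 and 5.34e-08). MARS2, for methionine, was at 39.0 CPM in both IgG libraries and 22.6 and 24.0 CPM with anti-M8nAb at 24 h, a change of -0.74 ± 0.10 (adjusted p 1.91e-08). TARS2, for threonine, rose by 0.40 ± 0.089 at 24 h while the cytosolic TARS1 was lower. Of 8 cytosolic one-carbon enzymes, 2 rose and 2 fell by 12 h, while 1 rose and 3 fell by 24 h. MTHFD1 changed by -0.40 ± 0.050 and SHMT1 by -0.46 ± 0.079 at 24 h.

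Of 14 other amino acid transporters, 1 rose (7.14%) and 6 fell (42.9%) by 12 h, where 15.8% and 16.4% of all genes did. By 24 h, 2 rose (14.3%) and 6 fell (42.9%), where 21.2% and 21.3% of all genes did. SLC1A1, a glutamate carrier, was at 16.4 and 16.9 CPM with IgG and 5.84 and 6.03 CPM with anti-M8nAb at 12 h, a change of -1.49 ± 0.14 (adjusted p 1.45e-11) that was -0.53 ± 0.12 at 24 h. SLC38A5 changed by -1.16 ± 0.089 and SLC1A3 by -1.06 ± 0.10 at 24 h, and SLC7A8, a carrier of neutral amino acids, rose by 0.29 ± 0.051 and 0.24 ± 0.051. Of 12 genes of the XBP1 and ATF6 arms of the unfolded protein response, 2 rose (16.7%) and 4 fell (33.3%) by 12 h. By 24 h, 7 rose (58.3%) and 1 fell (8.33%), beside the same shares of all genes as above. HSPA5, the main chaperone of the endoplasmic reticulum, was at 685 and 655 CPM with IgG and 1058 and 1204 CPM with anti-M8nAb at 24 h, a rise of 0.75 ± 0.048 (adjusted p 2.2e-17) after a change of -0.17 ± 0.049 at 12 h (adjusted p 0.00601). HERPUD1, DNAJB9 and EDEM1, which serve the disposal of misfolded proteins, rose by 0.86, 0.67 and 0.66 at 24 h.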
